A study of Mus musculus with 24 samples.

Results

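Gfap, Vim, Nes and Synm code for the intermediate filament proteins of astrocytes and of the progenitor cells they come from. These 4 genes were taken by symbol from the 49671 genes of the count matrix, and all 4 passed the filter on low counts, as did 19691 genes in all. Expression was compared across 24 mouse RNA-seq libraries, in 6 groups of 4, from the 2 states in which primary astrocytes are usually studied (directly isolated or cultured) at 2 ages, and from a stem cell model of astrocytes and its precursor.

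NSC were neural stem cells made from a C57Bl/6 N embryonic stem cell line and kept in EGF and FGF (20 ng/ml each). AGES, or astrocytes generated from embryonic stem cells, were NSC replated with 20 ng/ml BMP4 in place of EGF and FGF for 3 to 5 days. Their surface was poly-L-ornithine and laminin rather than gelatin. Since NSC and AGES came from 1 line, their replicates were cultures at different passages. The neoAC were sorted magnetically with the astrocyte surface antigen ACSA-2 from brains of C57BL/6 J mice aged 4 to 8 days, and the AdAC likewise from mice aged 100 to 140 days, with debris and red blood cell removal for the adult brains alone. Neonatal cells came from cerebral tissue freed of meninges, a step not stated for adult brains. Olfactory bulb and cerebellum were removed for direct adult isolation. Each isolation pooled 2 mice, and both sexes were mixed. The cells named direct were frozen after the sort, and those named CellC grew for 7 to 10 days on poly-L-lysine and laminin. Their medium was AstroMACS, which NSC and AGES did not receive. No group carried an engineered allele.

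Intermediate filament proteins polymerize through a shared coiled-coil rod into flexible cables of the cytoplasm. Vimentin can form filaments alone and also copolymerizes with GFAP, whereas nestin and synemin need a partner such as vimentin. In the developing brain, radial glia and stem cells are known for nestin and vimentin, and maturing astrocytes for GFAP. Vimentin and nestin are made outside the glial lineage as well, in endothelial cells, pericytes and fibroblasts.

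No one of 4 searched promoter elements was found in all members. RefSeq start sites were found for 4 of 4 members, and the 250 bases before each were searched on both strands for 4 known elements. Of 32851 mouse promoter windows of this length, 12.4% hold TATAAA, the core of the classical promoter box bound by TBP. Matches to CCAAT, bound by NF-Y, are in 33.8% of the windows. For GGGCGG, bound by Sp1, the share is 32.7%. The spaced palindrome TTCNNNGAA, bound by STAT factors, is in 7.0%. Gfap held none of these. Nes held Sp1 matches beginning 73 and 62 bases before its start, Vim a TBP match 32 bases before it and NF-Y matches at 196 and 94, and Synm an NF-Y match at 78, none of them overlapping another. The upstream stretches of Gfap and Nes are shown because these genes moved in opposite directions when NSC became AGES. They are 100 bases each from GRCm38.p6, at chr11:102897201-102897300 on the minus strand, which ends at the RefSeq start, and at chr3:87970978-87971077 on the plus strand, which ends 15 bases before it. The Gfap stretch lies inside the span given below for the gene. That span begins further upstream, and its outer start was not searched. Capitals mark the Sp1 matches of Nes, which lie on the opposite strand.
Gfap: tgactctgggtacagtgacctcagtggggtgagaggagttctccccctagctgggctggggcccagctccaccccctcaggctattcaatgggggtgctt
Nes: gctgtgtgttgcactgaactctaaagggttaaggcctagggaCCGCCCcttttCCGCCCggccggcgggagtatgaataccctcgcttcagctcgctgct

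Library totals ranged from 27904126 to 37997368 counts on genes. Levels are given in CPM, depth-normalized counts after TMM scaling between libraries, and as RPKM (per kilobase of exon) where genes are compared with each other. The summed level of 8 astrocyte markers (Slc1a2, Slc1a3, Aqp4, Aldh1l1, Aldoc, Atp1b2, Gja1 and S100b) was 19638 to 22425 CPM in neoAC direct and 15828 to 16547 in AdAC direct, but 4749 to 5532 in neoAC CellC, 6162 to 7095 in AGES, 1913 to 2436 in NSC and 791 to 1151 in AdAC CellC. The single markers did not all follow this order. Slc1a3 (1499 against 219 CPM), Aldoc (390 against 65 CPM) and Slc1a2 (210 against 49.9 CPM) averaged higher in NSC than in AdAC CellC. Aqp4, Aldh1l1, Atp1b2, Gja1 and S100b averaged higher in AdAC CellC than in NSC. Aldoc averaged 3307 CPM in AGES, where Slc1a3, Aldh1l1 and Gja1 averaged lower than in NSC. In NSC the cycling genes Mki67 and Top2a stood at 957 and 1407 CPM. Markers of 5 oligodendrocyte genes summed to 24249 to 26748 CPM in AdAC direct and 3734 to 9507 CPM in AdAC CellC, against at most 393 CPM in any other library. Genes of mural cells and fibroblasts summed to 1527 to 1945 CPM in AdAC CellC and at most 909 CPM elsewhere, through Acta2 and Col1a1 (813 CPM each), whereas Pdgfrb, Rgs5, Dcn and Lum were higher in other groups. Library 2 of neoAC direct stood apart in endothelial genes (239 against 57.7 to 93.5 CPM), and every call on the members given here for neoAC direct held without it. In such bulk samples, fewer cells of a type and less RNA per cell cannot be told apart.

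Gfap, the principal filament gene of astrocytes (chr11:102887336-102900912, minus strand, ENSMUSG00000020932), spanned the widest range of the members. NSC libraries 1 to 4 held 36.0, 33.1, 29.0 and 33.3 CPM, and AGES libraries 48327, 50220, 50465 and 52915 CPM. It ranked 1 in AGES both by CPM (of 19691 genes) and by RPKM (of 19633 genes), and took 4.41 to 4.79% of all counts there. Among primary cells, the levels were 2653, 3142, 2805 and 2575 CPM in neoAC CellC and 1866, 1726, 1546 and 1748 CPM in neoAC direct. Both neonatal groups lay far above the adult cells. Adult values were 126, 200.4, 170.5 and 259.8 CPM in AdAC CellC and 170.4, 175, 162 and 160.5 CPM in AdAC direct, and these groups overlapped.

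The order of Gfap levels was AGES, neoAC CellC, neoAC direct, AdAC CellC, AdAC direct and NSC. Each neighbour differed from the next (edgeR quasi-likelihood test, adjusted p of 9.36e-05 or smaller) except the adult pair (0.18 ± 0.14 (SE) on the log2 scale, adjusted p = 0.239), and without library 1 of AdAC CellC that pair passed as well (0.35, 0.0106). AdAC CellC was the most variable group for this gene, with a coefficient of variation of 29.6% against 3.73 to 8.98% in the other 5 groups. In AdAC CellC, library 1 was lowest in Gfap and also lowest in summed astrocyte markers (791 CPM) and oligodendrocyte markers (3734 CPM), and library 4 was highest in Gfap and in astrocyte markers (1151 CPM). The part of cell composition in this spread was not tested.

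Vim, the vimentin gene (chr2:13573927-13582826, plus strand, ENSMUSG00000026728), had larger fold changes with culture than with age. Freshly sorted cells held 706, 633.5, 730.1 and 620.5 CPM in neoAC direct and 348, 312, 314 and 325 CPM in AdAC direct. In culture these became 3287, 2890, 3073 and 3158 CPM for neoAC CellC and 4342, 4303, 3805 and 4600 CPM for AdAC CellC. No cultured library overlapped a directly isolated one. NSC held 1910, 2231, 1645 and 1633 CPM, between the fresh and the cultured primary cells, and AGES held 7013, 5814, 9869 and 10530 CPM, above all others.

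The 6 groups ordered as AGES, AdAC CellC, neoAC CellC, NSC, neoAC direct and AdAC direct, and every neighbouring pair differed for Vim (edgeR adjusted p of 0.00522 or smaller) without overlap between libraries. Vim ranked 3 of 19691 genes by CPM both in AGES and in AdAC CellC. The AGES libraries formed a lower and a higher pair, with 1 and 2 below 3 and 4, and the same split appeared in Nes. Summed neuron markers split likewise (20.4 and 15.7 against 40.2 and 45.6 CPM), and a link to Vim or Nes was not tested.

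Nes, the nestin gene (chr3:87971078-87980451, plus strand, ENSMUSG00000004891), was highest in NSC, at 1339, 1257, 1592 and 1402 CPM. AdAC CellC libraries held nearly as much, 1286, 1223, 1205 and 1330 CPM, and the difference from NSC did not pass the test (0.15 ± 0.16 on the log2 scale, edgeR adjusted p = 0.389). The 4 neoAC CellC libraries held 1276, 855, 816 and 910.5 CPM, of which library 1 reached the AdAC CellC range and the other 3 did not. AGES held 593.5, 459, 756 and 817 CPM, and neoAC direct 301, 227, 348 and 231 CPM. AdAC direct held the least, 48.7, 53.2, 55.7 and 51.0 CPM, and no other group overlapped it. In order, NSC and AdAC CellC were followed by neoAC CellC, AGES, neoAC direct and AdAC direct. The step from AdAC CellC to neoAC CellC was small (0.39 ± 0.16, adjusted p = 0.0335) and failed the threshold under 12 of 15 other settings, while the later steps passed (0.00258 or smaller).

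Synm, the synemin gene (chr7:67730160-67759742, minus strand, ENSMUSG00000030554), which codes for a large filament protein that also binds the dystrophin complex, had the reverse age pattern to Gfap. Counts were highest in AdAC direct, at 179.5, 188, 172 and 187 CPM, followed by 109.5, 116, 124 and 115 CPM in AdAC CellC. Neonatal cells held 30.1, 35.3, 28.9 and 28.4 CPM in culture and 18.7, 23.2, 12.7 and 20.5 CPM when directly isolated. No adult library overlapped a neonatal one. AGES libraries held 39.6, 24.4, 63.4 and 26.2 CPM, a coefficient of variation of 46.9%, and did not differ detectably from neoAC CellC (0.32 ± 0.20, edgeR adjusted p = 0.159), although without AGES library 2 (0.49, 0.0268) or 4 (0.47, 0.042) they did. NSC held 2.28, 1.82, 1.66 and 1.74 CPM. The other neighbours in the order AdAC direct, AdAC CellC, AGES, neoAC CellC, neoAC direct and NSC differed (adjusted p of 0.00555 or smaller). Of the exon bases of Synm, 6.43% lie opposite exons of Ttc23 and Gm45102, and whether strand was used in counting is not given in the sources used here. Ttc23 averaged 16.3 to 28.5 CPM in all 6 groups. The other members overlapped no other gene.

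**Figure D1:**
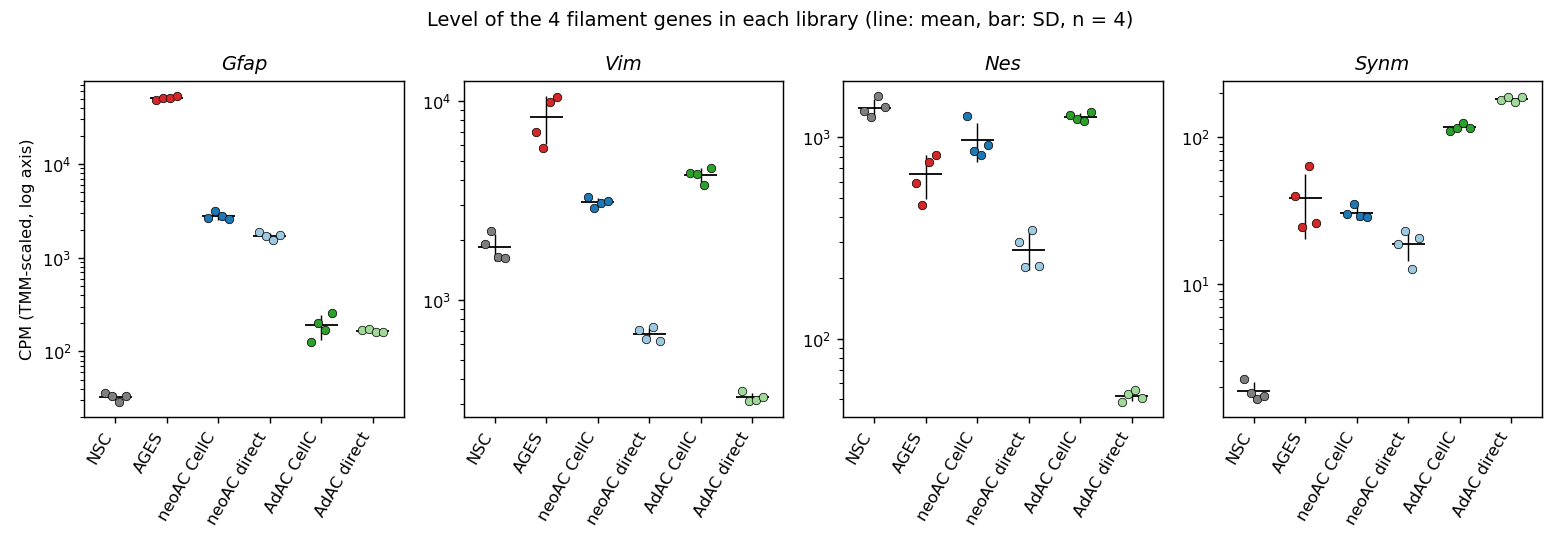
TMM-scaled CPM (log axis, 1 panel per gene) of the 4 members in each of the 24 libraries, with points for libraries, a horizontal line for the group mean and a vertical bar for the SD (n = 4). Gfap peaks in AGES, Vim is low in both direct groups, Nes is lowest in AdAC direct, and Synm is highest in the 2 adult groups.

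Culturing adult astrocytes changed 3 of 4 members, where 78.0% of all tested genes were called, so the count itself is near the background. Removal of olfactory bulb and cerebellum is stated only for the direct adult isolation, so culture and brain region cannot be told apart. Nes rose from 52.1 ± 3.01 to 1261 ± 57.7 CPM (SD, n = 4), or 4.60 ± 0.18 on the log2 scale (edgeR adjusted p = 2.86e-17), and only 4.63% of all tested genes had a larger absolute change. Vim rose from 324.6 ± 16.5 to 4263 ± 332 CPM, or 3.72 ± 0.15 (5.28e-17). Synm fell from 182 ± 7.30 to 116 ± 6.01 CPM, a log2 change of -0.65 ± 0.20 (0.00555). Gfap was 189 ± 56.0 CPM in culture against 167 ± 7.00 CPM in fresh cells and was not called, so that vimentin and nestin transcripts rose beside a GFAP transcript level that overlapped between the groups. Astrocyte markers summed to 791 to 1151 CPM in the cultured against 15828 to 16547 CPM in the fresh adult cells, mural and fibroblast genes to 1527 to 1945 against 323 to 346 CPM. Within the latter list the mean of Acta2 was 813 against 69.7 CPM and that of Col1a1 813 against 38.2 CPM, while the pericyte genes Pdgfrb (69.1 against 140 CPM) and Rgs5 (47.7 against 81.9 CPM) were lower in culture. Dcn (10.5 against 6.64 CPM) and Lum (2.45 against 0.97 CPM) averaged higher in culture, at low levels. Whether these other cells carried part of the Vim and Nes increase was not tested. Endothelial markers, another class with vimentin and nestin, summed to 37.4 to 50.1 CPM in culture and 60 to 64.2 CPM in fresh adult cells, with Flt1 and Cldn5 lower in culture (12.2 against 30.8 and 4.13 against 15.1 CPM) and Cdh5 and Pecam1 higher (17.6 against 7.11 and 10.9 against 9.08 CPM).

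Culturing neonatal astrocytes raised 4 of 4 members, where 65.7% of genes were called and 34.4% were called higher. Vim rose 2.21 ± 0.14 on the log2 scale from 672 ± 53.6 to 3102 ± 166 CPM (edgeR adjusted p = 9.25e-13). Nes rose 1.80 ± 0.16 from 276 ± 58.4 to 964 ± 212 CPM (3.92e-10). Gfap and Synm rose less, 0.70 ± 0.14 (9.36e-05) and 0.71 ± 0.21 (0.00487), and in all 4 genes every cultured library lay above every fresh one (58.0% of tested genes had no overlap in either direction). Mural and fibroblast markers were 469 to 909 CPM in culture and 272 to 528 CPM in fresh neonatal cells, and ependymal markers 1241 to 1570 against 113 to 170 CPM. Acta2 was 429 against 6.25 CPM and Col1a1 191 against 60.2 CPM, but Rgs5 was 1.51 against 170 CPM and Pdgfrb 47.8 against 134 CPM. Dcn (17 against 12.3 CPM) and Lum (12.8 against 1.84 CPM) averaged higher in culture. Endothelial markers summed to 3.66 to 5.95 CPM in culture and 57.7 to 239 CPM in fresh cells. Their part in these increases was not tested.

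The change in culture differed between ages for each member in the interaction of the fit, where 68.6% of genes were called. The adult change exceeded the neonatal one by 2.79 ± 0.23 for Nes (edgeR adjusted p = 5.71e-11) and by 1.51 ± 0.19 for Vim (2.12e-07), on the log2 scale. For Synm it was lower by a log2 difference of -1.35 ± 0.29 (0.000253), as Synm fell in adult and rose in neonatal culture. The Gfap difference was -0.52 ± 0.20 (0.0218), and it failed the threshold when library 1 or 3 of AdAC CellC or library 2 of neoAC CellC was left out (adjusted p = 0.0547, 0.0521 and 0.0568).

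The age comparisons put Gfap and Synm at opposite ends. In directly isolated cells, 4 of 4 members differed, where 71.4% of genes were called. Gfap was 10.3-fold higher in neonatal than in adult cells (3.37 ± 0.15 on the log2 scale, edgeR adjusted p = 4.95e-16), Nes 5.30-fold (2.41 ± 0.17, 1.87e-12) and Vim 2.07-fold (1.05 ± 0.14, 2.52e-07). Synm was 9.66-fold lower (-3.27 ± 0.22, 5.15e-12). Oligodendrocyte markers summed to at least 24249 CPM in the adult and at most 393 CPM in the neonatal fresh libraries, and their part in the differences was not tested. Adult and neonatal brains were dissociated with different kits, and removal of meninges is stated for neonatal brains alone. Age and preparation, with the tissue taken, cannot be told apart.

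In cultured cells, which share these libraries with the culture comparisons, 4 of 4 members again differed (63.8% of genes called). Gfap was 14.8-fold higher in neoAC CellC than in AdAC CellC (3.88 ± 0.16, edgeR adjusted p = 2.76e-16) and Synm 3.78-fold lower (-1.92 ± 0.21, 3.17e-08). Vim and Nes were now slightly lower in the neonatal cells, by log2 differences of -0.46 ± 0.14 (0.00522) and -0.39 ± 0.16 (0.0335). For Vim the cultures did not overlap and for Nes they did, and both genes had the opposite sign in fresh cells. Astrocyte markers summed to 4749 to 5532 CPM in neoAC CellC and 791 to 1151 CPM in AdAC CellC, oligodendrocyte markers to 245 to 318 and 3734 to 9507 CPM. Mural and fibroblast markers summed to 469 to 909 and 1527 to 1945 CPM, ependymal markers to 1241 to 1570 and 192 to 270 CPM. The part of cell composition was not tested, and age and preparation cannot be told apart here either.

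Differentiation of NSC into AGES with BMP4 changed 4 of 4 members, where 65.7% of genes were called. BMP4, the removal of EGF and FGF and the new surface came together and cannot be told apart. Gfap rose 1537-fold (10.59 ± 0.21 on the log2 scale, edgeR adjusted p = 1.9e-22), the change ranked 5 of all 19691 tested genes by size. Synm rose 20.4-fold from 1.87 ± 0.28 to 38.4 ± 18 CPM (4.35 ± 0.26, 4.5e-13), and Vim 4.48-fold (2.16 ± 0.14, 6.68e-13). Nes fell from 1398 ± 143 to 656 ± 162 CPM, a log2 change of -1.09 ± 0.16 (1.05e-06), without overlap between the groups. Nes was thus the only member that was lower in AGES, while Vim, also known from stem cells, rose. Nes in AGES still stood above neoAC direct by 1.25 ± 0.16 (edgeR adjusted p = 1.13e-07). Endothelial, microglial and mural or fibroblast markers each summed to less than 10 CPM in all 8 libraries. Neuron markers summed to 15.7 to 45.6 CPM in AGES and 1.94 to 3.42 CPM in NSC, with Tubb3 at 28.7 and 2.48 CPM. Ependymal markers summed to 52.6 to 77.3 CPM in AGES and 14.5 to 23.3 CPM in NSC. The part of such cells was not tested.

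AGES and cultured adult astrocytes differed in 4 of 4 members (76.2% of genes called), AGES and cultured neonatal astrocytes in 3 of 4 (74.6%), and the AGES libraries are shared by both and by the comparison with NSC. Gfap was 267-fold higher in AGES than in AdAC CellC (8.06 ± 0.19, edgeR adjusted p = 4.2e-22) and 18.1-fold higher than in neoAC CellC (4.18 ± 0.16, 4.12e-18). Vim was 1.95-fold (7.4e-07) and 2.68-fold (1.19e-09) higher. Nes was lower in AGES than in either culture, by log2 differences of -0.94 ± 0.16 (7.01e-06) and -0.56 ± 0.16 (0.00258). Synm was 3.03-fold lower than in AdAC CellC (-1.60 ± 0.21, 2.45e-07) and not called against neoAC CellC. AGES also differed from the primary cultures in substrain, in medium and in coating (poly-L-ornithine against poly-L-lysine, each with laminin). These differences and cell origin cannot be told apart. Between AGES and AdAC CellC the typical gene was lower in AGES (median log2 difference -0.23), and relative to it the members differed by 8.29 (Gfap), 1.19 (Vim), -0.72 (Nes) and -1.37 (Synm). In the other 6 comparisons this median lay between -0.08 and 0.04.

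**Figure D2:**
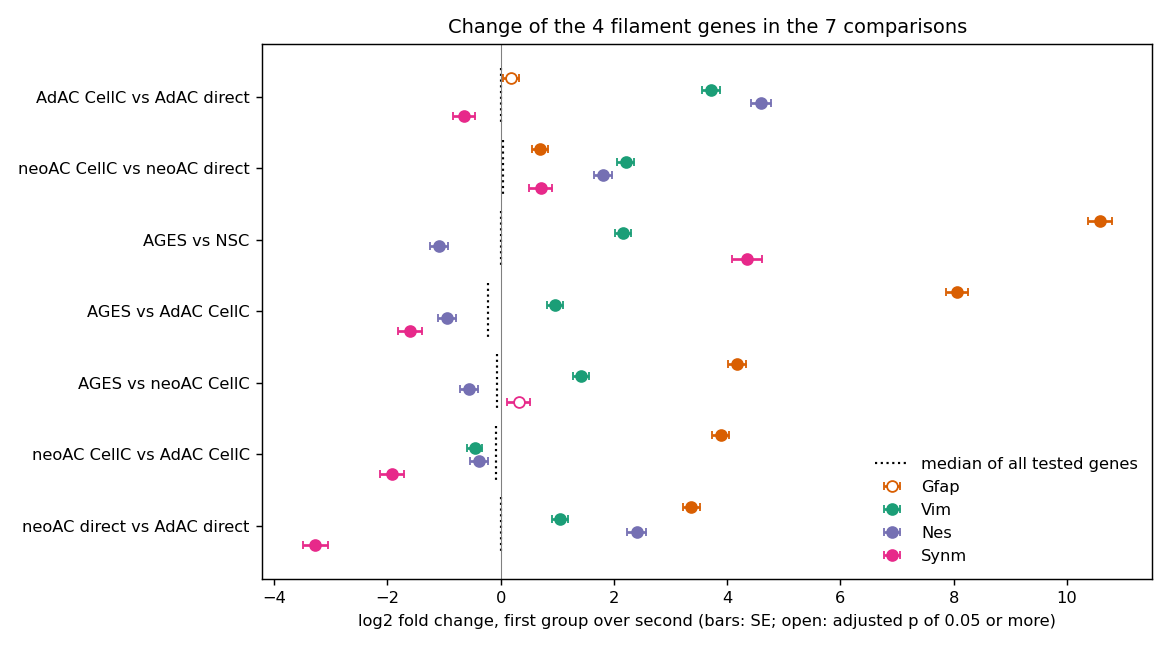
log2 fold change (x axis, first group over second) of each member in the 7 comparisons (y axis), with SE bars from the edgeR fit, filled points for an adjusted p under 0.05, open points otherwise, and a dotted line at the median of all tested genes. Gfap reaches 10.59 in AGES against NSC, and Synm lies on the opposite side of zero from Gfap in the 2 age comparisons.

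Per unit length, the 4 transcripts were mixed in different proportions in each group. The members summed to 13827 ± 871 RPKM in AGES, 1470 ± 46.5 in neoAC CellC, 1155 ± 84.8 in AdAC CellC, 617 ± 43.4 in NSC, 595 ± 30.2 in neoAC direct and 139 ± 3.70 in AdAC direct. Gfap was 86.7 ± 2.87% of that sum in AGES, 68.5 ± 3.38% in neoAC direct and 45.0 ± 3.81% in neoAC CellC. Its share was 28.5 ± 0.98% in AdAC direct, 3.86 ± 0.97% in AdAC CellC and 1.27 ± 0.13% in NSC. Vim led in AdAC CellC (77.8 ± 0.98%), in NSC (63.1 ± 5.34%) and in AdAC direct (49.2 ± 1.55%). Nes supplied 35.6 ± 5.33% in NSC and 17.1 ± 0.71% in AdAC CellC. Synm was 16.5 ± 0.68% in AdAC direct and at most 1.5% in any library of the other groups. These shares depend on the length used, here all exon bases of a gene. The longest transcript is much shorter for Gfap (2648 against 4218 bases) and Vim (2926 against 4743), less so for Nes (6126 against 6416) and Synm (7818 against 7933). With it, the shares of Nes and Synm would be smaller.

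**Figure D3:**
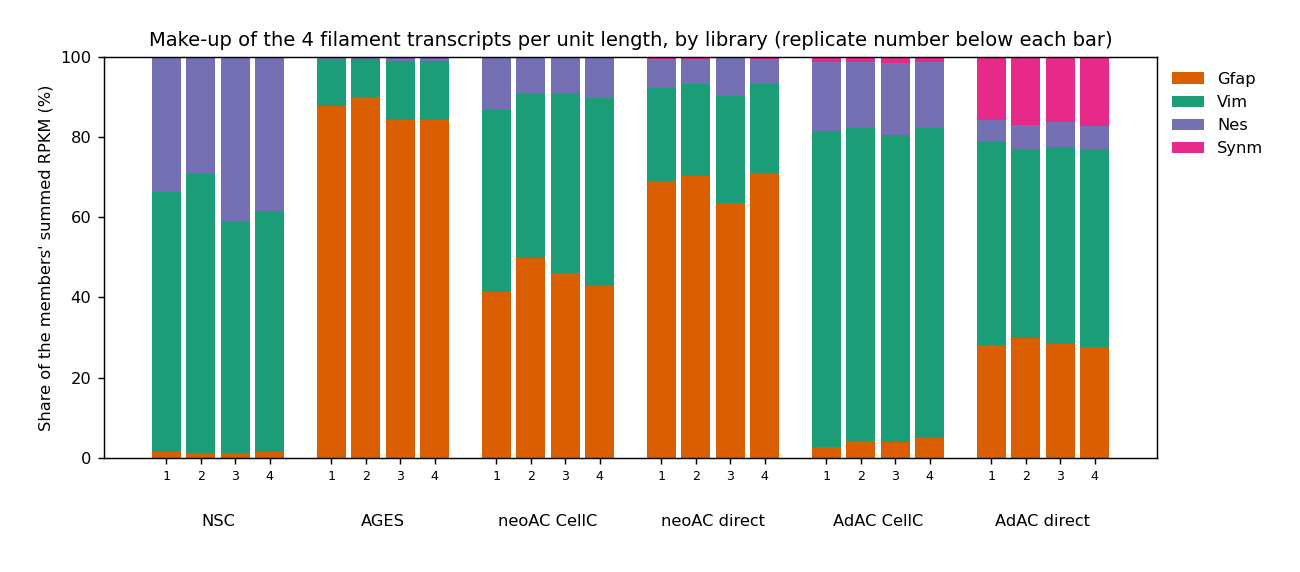
Share of each member in the summed RPKM of the 4 genes (y axis, %), 1 stacked bar per library, with the 24 libraries grouped along the x axis. AGES bars are mostly Gfap (84.2 to 90.2%), AdAC CellC bars mostly Vim (76.7 to 78.9%), and only AdAC direct has a wide Synm segment (15.7 to 17.1%).

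Ratios of the other members to Vim within a library do not depend on the scaling between libraries. All 21 tests (3 ratios in 7 comparisons) were exact two-sided permutation tests of 4 against 4 libraries, whose smallest possible p is 0.0286, and 19 reached it (Benjamini-Hochberg adjusted p = 0.0316). Gfap/Vim averaged 2.81 ± 0.38 on the log2 scale in AGES and -5.64 ± 0.20 in NSC. Culture lowered it by a log2 difference of -3.58 in adult and -1.51 in neonatal cells. Nes/Vim, by contrast, was -2.14 ± 0.24 in neoAC CellC and -2.19 ± 0.07 in AdAC CellC, a difference of 0.05 (exact permutation p = 0.857), and its change in neonatal culture (-0.41) did not pass either (exact permutation p = 0.0857, adjusted 0.09). In adult culture Nes rose more than Vim, by 0.88.

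Of 17 other intermediate filament genes, all tested, 13 rose and 3 fell when adult cells were cultured (38.8% of all genes rose and 39.2% fell), with a median log2 change of 1.73 beside 0 over all genes. Krt7, a simple-epithelium keratin, rose from 0.14 to 26.8 CPM (7.56 ± 0.46, edgeR adjusted p = 1.98e-11), and Nefm, the medium neurofilament subunit, from 0.67 to 27.3 CPM (5.33 ± 0.19, 5.95e-18). Iffo1 (-1.22 ± 0.10, 2.44e-11) and the lens filament gene Bfsp2 (-1.11 ± 0.18, 4.02e-06) fell. Exon bases of Nefm (19.2%), Ina (14.1%) and Bfsp2 (11.8%) lie opposite another gene. In neonatal culture 7 rose and 4 fell (median 0.26, all genes 0.04, of which 34.4% rose and 31.3% fell), among them Lmna, which codes for the A-type lamins of the nuclear envelope, from 51.1 to 89.7 CPM (0.81 ± 0.13, 7.31e-06), and Iffo2 (0.58 ± 0.13, 0.000273).

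Between NSC and AGES, 3 of the 17 were higher in AGES and 4 lower (median -0.32, all genes 0, of which 31.7% were higher and 34.0% lower). Prph, the peripherin gene of peripheral neurons, rose from 0.20 to 12.1 CPM (5.90 ± 0.30, edgeR adjusted p = 4.46e-15), while the B-type lamins fell, Lmnb1 from 459.8 to 11.1 CPM (-5.38 ± 0.16, 1.56e-19) and Lmnb2 from 64.8 to 16.0 CPM (-2.02 ± 0.14, 3.4e-12). Against the cultures, AGES was lower in 14 of the 17 genes beside AdAC CellC (median -5.49; 45.2% of all genes were lower and 31.0% higher) and in 10 beside neoAC CellC (median -3.66; 40.5% lower and 34.1% higher), and higher in 2 genes both times, Prph and Ina (the gene of alpha-internexin, a neuronal filament). Krt7 had 0 counts in all 4 AGES libraries and 26.8 CPM in AdAC CellC, and Krt8 had 0.041 and 50.1 CPM. In AGES 8 of the 17 genes averaged under a floor of 3 counts per library, and with levels under this floor raised to it the medians were -3.71 and -1.08. The same step moved the median of AGES against NSC from -0.32 to 0.05. Lmna (-4.08 ± 0.15, 5.24e-18) and Lmnb1 (-3.66 ± 0.15, 3.23e-17) had the largest decreases against neoAC CellC among called genes that averaged 10 CPM or more in either group.

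By age, in cultured cells 13 of the 17 were lower in neonatal cells and 1 was higher, Ina (median -1.98, all genes -0.08, of which 35.2% were lower and 28.5% higher), with Krt7 at 0.20 against 26.8 CPM (-7.02 ± 0.43, edgeR adjusted p = 7.24e-11) and Krt19 at 0.062 against 11.2 CPM. In fresh cells 8 were lower and 4 higher in neonatal cells (median -0.37, all genes 0, of which 36.4% were lower and 35.0% higher), so that 12 of 17 were called beside 71.4% of all genes, where Lmnb1 was higher (2.87 ± 0.15, 5.53e-15) and the paired keratins Krt8 (-2.95 ± 0.27, 4.73e-10) and Krt18 (-2.50 ± 0.29, 3.69e-08) were lower. Lamins are nuclear rather than cytoplasmic filaments, and Lmnb1 was highest where the cycling genes were. The keratins, Des and the neurofilament genes Nefl and Nefm had their highest group mean in AdAC CellC, the group highest in Acta2 and Col1a1 but not in the other 4 mural and fibroblast markers, and the part of other cells in this was not tested.

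**Figure D4:**
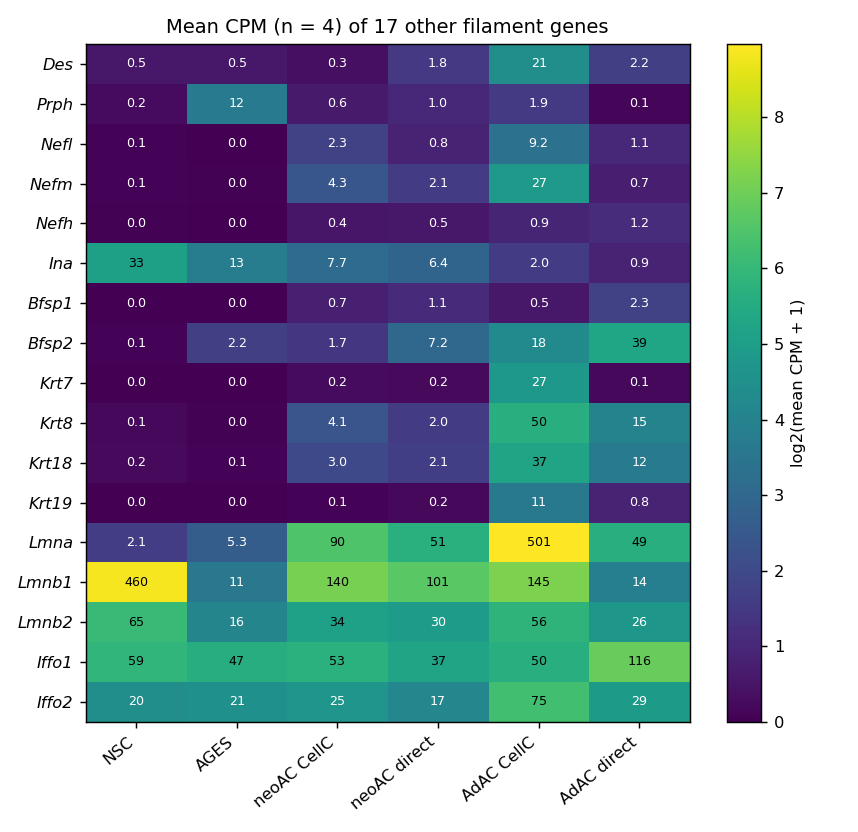
Mean CPM of 17 other intermediate filament genes (rows, printed in each cell, n = 4) in the 6 groups (columns), coloured by log2 of the mean CPM plus 1. Lmna (501 CPM), the keratins and Nefm are highest in AdAC CellC, Lmnb1 in NSC (460 CPM), and Prph in AGES (12 CPM).

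Genes whose products cross-link, fold or phosphorylate these filaments moved in both directions, and 15 of 16 on the list were matched and tested (Eppk1 was not). When NSC became AGES, 8 rose and 3 fell (median 0.52, all genes 0, of which 31.7% rose and 34.0% fell). The small heat shock protein gene Cryab, a filament chaperone, rose from 10.5 to 1364 CPM (7.02 ± 0.19, edgeR adjusted p = 1.7e-20), with 17% of its exon bases opposite Hspb2, and Plec, the cytoskeletal cross-linker plectin, rose from 53.9 to 893 CPM (4.05 ± 0.13, 4.87e-19). The mitotic kinase genes Aurkb and Cdk1, whose products phosphorylate vimentin during division, fell from 135 to 0.30 CPM (-8.82 ± 0.24, 3.75e-20) and from 254 to 6.67 CPM (-5.25 ± 0.15, 5.49e-20).

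Adult culture raised 6 and lowered 7 of 15 partner genes (median -0.18, all genes 0, of which 38.8% rose and 39.2% fell), shares near the background. Neonatal culture raised 7 and lowered 3 (median 0.29, all genes 0.04, of which 34.4% rose and 31.3% fell). Cdk1 (6.96 ± 0.18, edgeR adjusted p = 2.71e-20) and Aurkb (6.50 ± 0.22, 2.12e-18) rose and the dystrobrevin gene Dtna (-1.94 ± 0.11, 1.96e-14) and Cdk5 (-1.36 ± 0.08, 1.55e-13) fell in adult culture. Cryab (3.78 ± 0.16, 3.88e-16) and its relative Hspb1 (1.53 ± 0.18, 6.81e-08) rose in neonatal culture, where Dtna (-0.77 ± 0.11, 5.5e-07) fell. Hspb1 stood at 0.087 CPM in AGES, 53.6 CPM in AdAC CellC and 14.95 CPM in neoAC CellC. AGES was higher in 7 partner genes and lower in 5 against AdAC CellC (median 0.16, all genes -0.23, with 76.2% called). There, Dtna (2.13 ± 0.11, 2.62e-15) and Cryab (1.53 ± 0.15, 6.23e-10) were the furthest up and Hspb1 and Aurkb the furthest down by the rule for named genes. AGES was higher in 8 and lower in 7 against neoAC CellC (median 0.39, all genes -0.07, with 74.6% called), where Cryab (2.32 ± 0.15, 3.12e-13) and Plec (1.74 ± 0.12, 1.01e-12) were up and the same 2 down. Aurkb stood at 0.30 CPM in AGES, 48.7 CPM in AdAC CellC and 40.2 CPM in neoAC CellC.

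By age, 4 partner genes were higher and 8 lower in neonatal than in adult cultures (median -0.36, all genes -0.08, of which 28.5% were higher and 35.2% lower). Dmd, the gene of dystrophin (1.25 ± 0.13, edgeR adjusted p = 6.94e-09), and Dtna (1.2 ± 0.11, 3.92e-10) were higher, and Hspb1 (-1.84 ± 0.18, 1.44e-09) and the kinase Pak1 (-1.42 ± 0.24, 2e-05) lower. In fresh cells 5 were higher and 6 lower (median 0.03, all genes 0), a called share near the 71.4% of all genes, with Cdk1 (5.72 ± 0.18, 7.84e-19) and Aurkb (5.08 ± 0.22, 3.42e-16) up in neonatal cells, and Cryab (-5.07 ± 0.17, 2.55e-18) and Pak1 (-2.86 ± 0.25, 7.28e-10) down. Cryab is also a known oligodendrocyte transcript, and fresh adult cells were those highest in oligodendrocyte markers, whose part was not tested.

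The 16 receptors and transcription factors known to act on Gfap, Vim or Nes were all tested. In AGES against NSC 12 rose and 3 fell (median 1.12, all genes 0, of which 31.7% rose and 34.0% fell). Id1 (5.14 ± 0.19, edgeR adjusted p = 1.16e-17) and Id3 (2.82 ± 0.16, 2.23e-14), BMP target genes, rose from 17.5 to 615 and from 151 to 1062 CPM. The LIF and IL-6 co-receptor gene Il6st (2.53) and Stat3 (1.30), whose products act in a pathway that activates Gfap, were among those that rose, whereas the LIF receptor gene Lifr was not called (0.15, 0.372). Olig2, a progenitor factor (-3.80 ± 0.25, 2.66e-12), and Smad5 (-1.54 ± 0.12, 9.08e-12) fell. AGES was also higher in 13 of 16 against AdAC CellC (lower in 2, median 1.27, all genes -0.23, of which 31.0% were higher) and in 10 against neoAC CellC (lower in 3, median 0.66, all genes -0.07, of which 34.1% were higher). Here Id3 stood at 3.98 ± 0.16 (3.6e-17) and 2.24 ± 0.15 (9.98e-13), and Id1 at 3.55 ± 0.17 (1.73e-15) and 2.71 ± 0.17 (1.84e-13). Olig2 was lower in both (-1.14 and -1.34). Nfib was lower than in AdAC CellC (-0.33 ± 0.11, 0.0112, but 0.108 without the low-count filter) and Pou3f2 lower than in neoAC CellC (-1.46 ± 0.14, 3.71e-10).

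Neonatal culture lowered 13 of 16 regulators (31.3% of all genes fell and 34.4% rose) and raised 1, Smad1 (0.48 ± 0.09, edgeR adjusted p = 2.53e-05), with a median of -0.72 beside 0.04 over all genes, and adult culture lowered 9 and raised 4 (median -0.49, all genes 0, of which 39.2% fell and 38.8% rose). The Notch effector gene Hes5 fell from 510 to 0.80 CPM in neonatal (-9.31 ± 0.39, 3.76e-15) and from 95.6 to 1.38 CPM in adult culture (-6.10 ± 0.34, 2.45e-13), with 31.8% of its exon bases opposite Gm20421. Id3 fell in neonatal culture (-1.48 ± 0.15, 3.35e-09). In adult culture the LIF receptor gene Lifr fell (-1.86 ± 0.15, 6.38e-11) and Id1 (1.51 ± 0.16, 8.4e-09) and Nfib (1.05 ± 0.11, 7.69e-09) rose. By age, neonatal cells were higher in 14 of 16 regulators when fresh (35.0% of genes called higher, median 1.09) and in 11 when cultured (28.5% called higher, median 0.56), and the remaining 2 and 5 were not called. Id1 (3.10 ± 0.17, 4.6e-14) and Id3 (2.96 ± 0.16, 1.33e-14) led in fresh cells and Pou3f2 (1.97 ± 0.14, 5.71e-12) and Id3 (1.74 ± 0.15, 3.1e-10) in cultured cells.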

How the data were processed

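RNA-seq counts of 24 libraries were used, with groups and replicate numbers from the sample titles. The authors prepared stranded mRNA libraries, aligned the reads to GRCm38 with STAR 2.7.3a and assigned them to the exons of each gene with featureCounts. The deposited values are these counts per gene, whole and not normalized, and no strand or pair setting of the counting is given in the sources used here. Identifiers were matched to symbols, positions and union exon lengths in Gencode vM21 (49326 of 49671, 99.3%), which also gave RPKM. Replicates were separate isolations or cultures, and no pair of them agreed within sampling noise.

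Genes kept by filterByExpr were scaled by TMM and fitted in 1 model of the 6 groups with edgeR 4.0.16 (R 4.3.3), tested two-sided with the quasi-likelihood F test and adjusted by Benjamini-Hochberg over the 19691 genes. A gene was called at an adjusted p under 0.05. The SE was taken from the size of the fold change (log2) and its F statistic. The floor used for low levels, 3 counts per library, equals 0.0846 to 0.0997 CPM and covers counting error only.

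The members and gene lists were chosen with earlier results of these data known. Named list genes were, per list and comparison, the 2 with the largest increase and the 2 with the largest decrease among called genes whose groups did not overlap and whose higher group averaged 10 CPM or more, and Il6st, Stat3 and Lifr (in AGES against NSC) were added after their values were seen. A result that this rule would name is not reported here. Likeness was the root mean square difference of centred log2 CPM (prior count 2). The fit was tested on simulated data. Alternatives were DESeq2 1.42.0 size factors, its Wald test, library size only, no filter, a stricter filter, an absolute log2 fold change over 1 as well, the longest transcript as gene length, fits of the compared groups with and without a replicate block, and leaving out each library.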

Additional observations from a re-analysis of the deposited data

Results flagged for a closer look

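In each of the 4 members the change in culture differed between adult and neonatal cells by the interaction term of the edgeR fit. The adult minus the neonatal change was -0.52 for Gfap, 1.51 for Vim, 2.79 for Nes and -1.35 for Synm, on the log2 scale. The interaction passed the threshold in 68.6% of all tested genes, so that such a difference was common. Adult and neonatal cells also differed in the dissociation kit and the tissue taken, and age and preparation cannot be told apart. No library stood outside its group of 4 by Dixon's test in any of the 24 sets of a member and a group.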

How the results depend on the processing

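Of 512 values of the members' log2 fold changes under other settings, 494 kept their side of the threshold, and no called value changed sign. Nes in neoAC CellC against AdAC CellC no longer passed with at least 10 counts in every library (-0.25), DESeq2 size factors (-0.28), the DESeq2 Wald test (-0.28), library size only (-0.31), no filter (-0.31) or only the groups compared (-0.29), and lay between -0.55 and -0.30 with a library left out. With libraries left out in turn, Gfap in adult culture lay between 0.00 and 0.35, Synm in AGES against neoAC CellC between -0.03 and 0.49, and the Gfap interaction between -0.70 and -0.36. With an absolute log2 fold change over 1 as well, 2 of 4 members were called in AGES against AdAC CellC, in neoAC CellC against AdAC CellC and in neoAC CellC against neoAC direct. Calls were also lost for Synm in adult culture (-0.65) and for Nes in AGES against neoAC CellC (-0.56).

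Requiring every library to have 10 or more counts removed genes from the lists, and so the counts moved. The family list then had 5 higher and 1 lower in adult culture, 4 and 0 in neonatal culture, 1 higher in AGES against NSC, 1 and 4 against AdAC CellC, 1 and 5 against neoAC CellC, 3 lower between the cultures by age and 2 and 2 between fresh cells, and the partner list had 3 lower in AGES against AdAC CellC, 1 lower against NSC and 3 higher between fresh cells. Among regulators, 5 were lower in AGES against neoAC CellC under this filter, DESeq2 size factors, the Wald test and library size only, and 1 was lower against AdAC CellC with no filter. In neonatal culture 2 regulators rose under this filter and the Wald test and 3 under library size only, which left 2 family genes lower. The cause of these last shifts was not tested. With a library left out, 1 to 2 regulators were lower in AGES against AdAC CellC, 1 to 2 rose in neonatal culture, and 1 to 2 family genes were higher in neoAC CellC than in AdAC CellC.

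The replicate numbers were not taken to pair the samples. Whether same-numbered samples of different groups shared an isolation or a passage is not given in the sources used here. In no comparison did all 4 same-numbered pairs correlate above 0.1 (-0.0953 to 0.106). Between 0 and 2 of 4 samples correlated best with their own number, and so few pairs cannot exclude pairing. With the replicate number as a block, 1 regulator was lower in AGES against AdAC CellC and 5 against neoAC CellC, and no call on a member changed. Depth limited no member, as the lowest count was 52 (Synm in NSC).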

Other observations

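The genes with the pattern most like that of each member were found among 12576 genes with at least 10 CPM in at least 1 group, by the root mean square difference between centred log2 CPM over the 24 libraries. This difference is not scaled to the spread of a member, and Gfap had the widest spread. The nearest genes to Gfap were Muc15 (1.13), Podn (1.23) and Slc36a2 (1.45), beside a spread of 3.45 for Gfap itself about its mean, and all 3 peaked in AGES, at 17.8, 184 and 16.4 CPM. The nearest genes to Vim were Gpx1, which codes for a glutathione peroxidase (0.37), Dap (0.47) and Rras2 (0.48), beside a spread of 1.59. For Nes these were Tmsb10, a thymosin gene (0.49), the CTP synthase gene Ctps (0.54) and the netrin gene Ntn1 (0.58), beside 1.66. Synm was most like Hecw2 (0.62), Mcam (0.68) and the dynamin gene Dnm3 (0.68), beside 2.13. Among the members themselves Vim and Nes were the most alike (1.04), and Gfap and Nes the least (3.80). The libraries share their groups, so these values describe group patterns and are not independent evidence about any pair of genes.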
